A study of Mus musculus with 12 samples.

Results

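The genes described here encode the 8 enzymes that make citrulline and arginine or break arginine down again: Aldh18a1, Oat, Cps1, Otc, Ass1, Asl, Arg2 and Arg1. They were chosen by name from the table of adult genes and matched to the table of neonatal genes by Entrez Gene identifier. All 8 were found under their current symbols, among 23319 genes present in both tables. Their transcripts were measured by RNA-seq of the entire small intestine, frozen and ground to powder, from mice of the strain C57BL/6. There were 4 groups, 2 at each age: wild type (WT) and NCoR1 intestinal KO (KO), as the labels call the genotype. Neonates were taken at postnatal day 12 and adults at 10 weeks, and the labels name no treatment. Each group held 3 libraries, and each library was a pool of RNA from 2 mice, so the p-values measure the spread between pools. The series' design text names 2 strains, F/FUN and DIECUN, without further detail, and the sources used here give no Cre driver for the deletion.

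In the enterocyte, the absorptive cell of the gut lining, glutamate is turned by the product of Aldh18a1 into pyrroline-5-carboxylate, which the product of Oat converts to ornithine. Carbamoyl phosphate from the product of Cps1 is joined to ornithine by the product of Otc, giving citrulline. The products of Ass1 and Asl turn citrulline into arginine, and an arginase splits arginine into ornithine and urea. The suckling gut is known to release arginine made in this way, whereas after weaning the gut mainly releases citrulline, which the kidney converts to arginine. NCoR1 is a corepressor that nuclear receptors and other transcription factors recruit to their target genes.

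Levels are reads per 1000000 reads in genes of the library (CPM), and levels of different genes are compared as CPM per kilobase of exon. Ratios of the CPM of 2 genes within a library are not adjusted for length and serve only to compare groups. The libraries held 5930748 to 13057329 reads in genes. Ncor1 stood at 452.5 ± 6.26 CPM (SD, n = 3) in WT neonates and 230.9 ± 16.1 CPM in KO neonates, and at 245.5 ± 6.39 CPM in WT adults and 163.7 ± 4.27 CPM in KO adults. Every KO library was below every WT library of its age, so the targeted gene followed the labels, with part of its transcript still counted in whole tissue. The 10 enterocyte markers were detected in every library and summed to between 48443 and 80406 CPM. In bulk tissue, fewer cells of a type and less RNA per cell cannot be told apart.

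Set side by side, the 2 ages had different sets of abundant enzyme transcripts. In WT neonates the levels per kilobase ran from Oat at 1020 ± 49.6 CPM per kilobase through Cps1 at 205.2 ± 11.1 and Aldh18a1 at 181.8 ± 7.74. Next came Asl at 54.7 ± 3.34 and Ass1 at 51.3 ± 4.53 CPM per kilobase, whose libraries overlapped, then Otc at 38.3 ± 2.93, Arg2 at 6.04 ± 2.72 and Arg1 at 1.10 ± 0.46. In that order only Asl and Ass1 were neighbours with overlapping libraries. The place of Cps1 above Aldh18a1 rests on the exon length given for Cps1 in neonates, 4664 bases. With the 5522 bases given in adults, the mean of Cps1 would fall below that of Aldh18a1 in both neonatal groups. In WT adults Arg2 came first at 535.0 ± 38.8 CPM per kilobase, followed by Oat at 297.5 ± 24.4, Cps1 at 109.4 ± 11.6 and Otc at 103.4 ± 5.83. Aldh18a1 at 20.9 ± 2.03 and Asl at 12.2 ± 0.85 CPM per kilobase lay below these, and Ass1 at 0.73 ± 0.34 and Arg1 at 0.66 ± 0.13 were lowest. Cps1 overlapped Otc in WT adults, and Ass1 overlapped Arg1. Most of the Ass1 transcript also matches a pseudogene, described below, whose reads are not included here. The place of Ass1 in these orders and its overlap with Asl are therefore uncertain. In both KO groups Oat, Cps1 and Aldh18a1 (neonates) or Arg2, Oat and Cps1 (adults) led the order as in the WT group of that age. The neonatal and adult tables were scaled separately, so age and table cannot be told apart, and the levels of the 2 ages were not tested against each other.

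**Figure D1:**
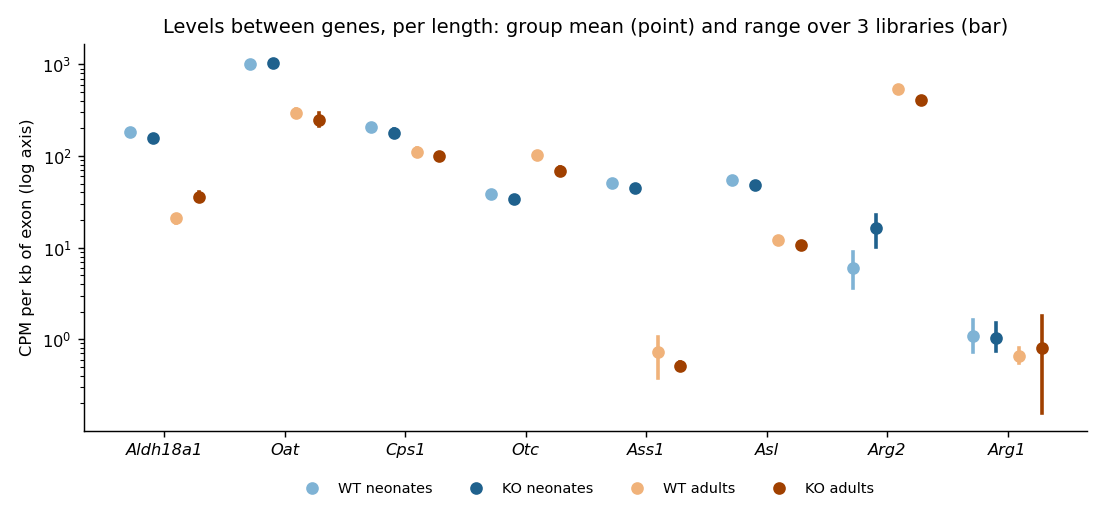
Group means (points) and the range over 3 libraries (bars) of CPM per kilobase of exon on a log axis, for the 8 genes in the 4 groups. Oat is the highest of the 8 in both neonatal groups at about 1020 to 1031 CPM per kilobase, and Arg2 is the highest in both adult groups at 535.0 and 403.9.

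Between WT neonates and WT adults, 5 of the 8 genes were lower in adults with no overlap of libraries (Ass1, Asl, Cps1, Oat and Aldh18a1), 2 were higher (Arg2 and Otc), and 1 overlapped (Arg1). The same split of genes was found between KO neonates and KO adults. The share of all genes that separate between the ages in this way was not computed, so the split is not read as a trait of these genes. In CPM, WT adults were below WT neonates by 69.8-fold for Ass1, 8.70-fold for Aldh18a1, 4.48-fold for Asl, 3.43-fold for Oat and 1.58-fold for Cps1. Arg2 was 88.6-fold and Otc 2.70-fold higher in WT adults than in WT neonates.

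**Figure D2:**
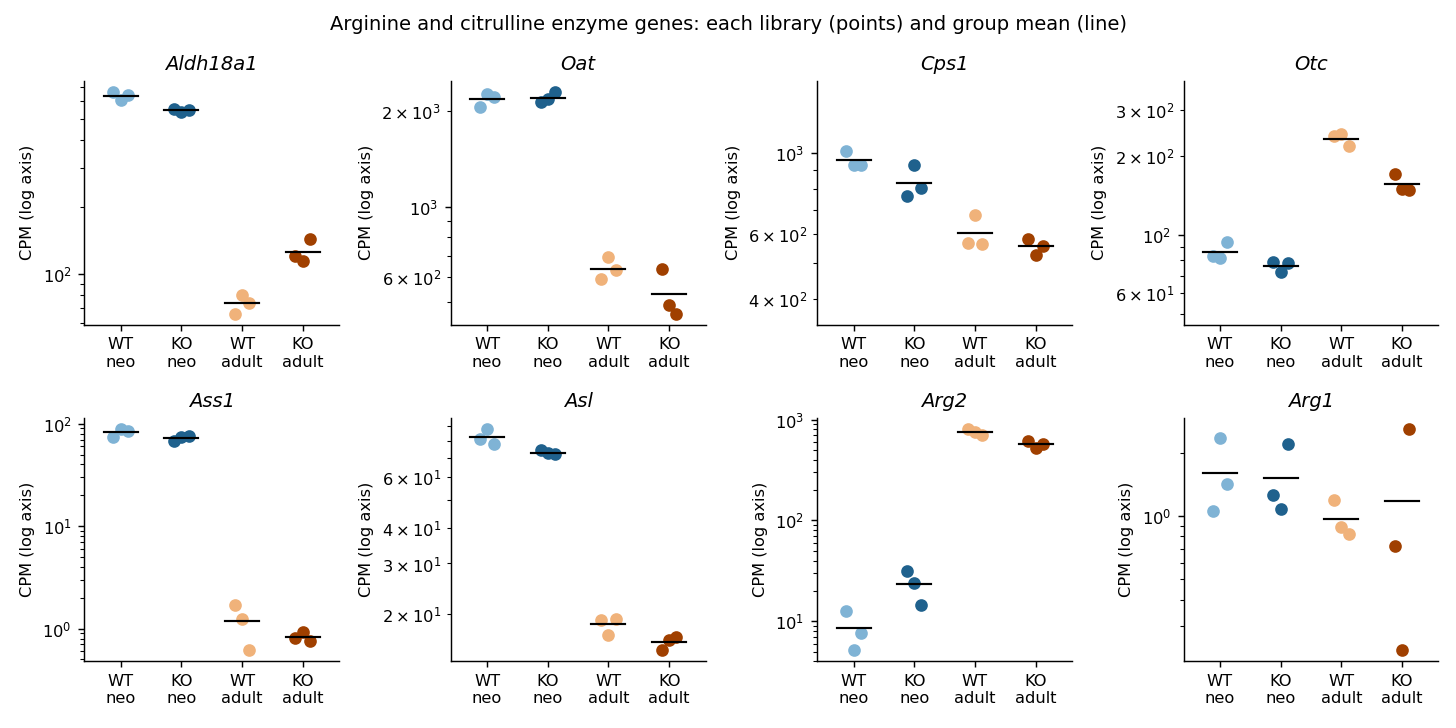
CPM of each library (points) and the group mean (line) on a log axis with its own range in each panel, for the 8 genes in WT and KO neonates and WT and KO adults. Aldh18a1 is lower in KO than in WT neonates but higher in KO than in WT adults, and Arg2 is higher in KO than in WT neonates but lower in KO than in WT adults.

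KO and WT were compared within each age with limma on log2(CPM + 1), with p-values adjusted over all tested genes by the Benjamini-Hochberg method and called under 0.05. In neonates all 8 genes were tested, and 0 were called higher and 2 lower in KO (Aldh18a1 and Cps1), while 1 was higher and 5 lower at an unadjusted p under 0.05. Over all 14215 genes tested in neonates, 5.21% were called higher and 16.0% lower. In adults 6 of the 8 could be tested, since Ass1 and Arg1 did not reach 1 CPM in 3 libraries, and 1 was called higher (Aldh18a1) and 2 lower (Otc and Arg2). Over all 13463 genes tested in adults, 5.50% were called higher and 13.9% lower. The balance of directions depended on the scaling. With TMM factors in place of library sums, 1278 genes (8.99%) were called higher and 1098 (7.72%) lower in neonates, against 741 and 2268 with library sums. In adults 1334 (9.94%) were called higher and 854 (6.37%) lower, against 741 and 1870 with library sums. The median log2 difference of all tested genes was -0.11 at both ages with library sums, and -0.02 in neonates and -0.0032 in adults with TMM factors. With TMM factors 0 of the 8 genes were called in neonates by limma, with 2 at an unadjusted p under 0.05, and edgeR called 0 and DESeq2 1 (Arg2, higher). In adults 1 was called higher (Aldh18a1) and 1 lower (Otc) by limma with TMM factors.

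**Figure D3:**
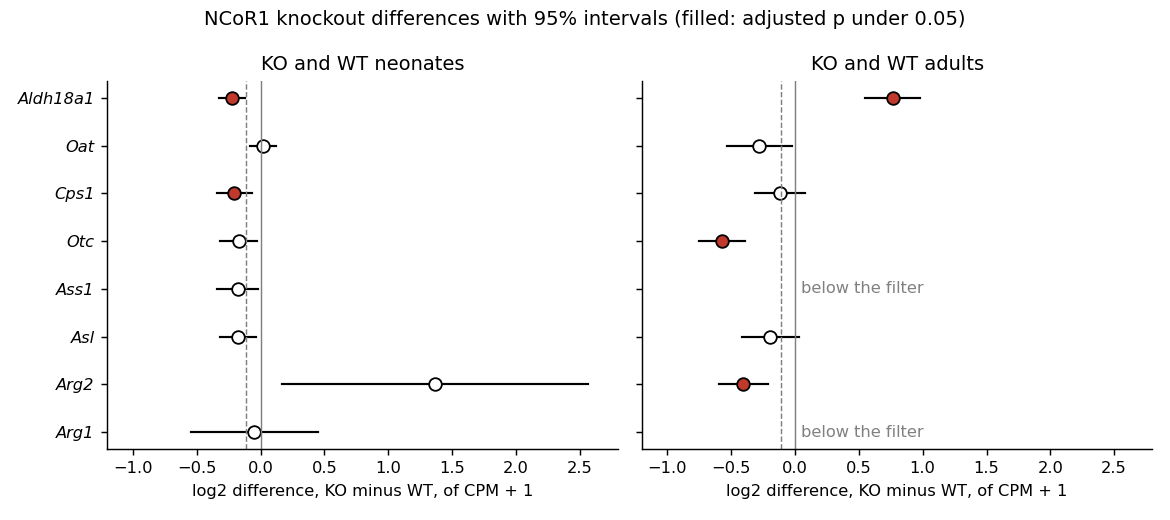
Log2 difference of CPM + 1, KO minus WT, with 95% confidence intervals from limma, in neonates (left) and adults (right). Filled points have an adjusted p under 0.05, the solid line marks 0 and the dashed line the median of all tested genes, -0.11 at both ages. The Aldh18a1 interval lies below 0 in neonates and above 0 in adults.

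Aldh18a1 encodes the mitochondrial enzyme that makes pyrroline-5-carboxylate from glutamate (mm9 chr19:40624747-40662953, minus strand). The WT neonatal libraries held 661, 608 and 643 CPM and the KO neonatal libraries 552, 536 and 550 CPM. Every KO neonatal library was below every WT one, and the difference was small, -0.22 on the log2 scale (SE 0.05, limma adjusted p = 0.00313). It was not called with TMM factors, at -0.12 (limma adjusted p = 0.152), nor with edgeR or DESeq2 on recovered reads.

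In adults Aldh18a1 went the other way. The WT adult libraries held 65.8, 80.0 and 73.8 CPM and the KO adult libraries 119, 114 and 143 CPM. The KO libraries stood clear above the WT libraries, by 1.71-fold of the group means. The log2 difference was 0.77 (SE 0.10, limma adjusted p = 2.82e-04), and it was called under every alternative tried. The effect of the knockout in adults minus that in neonates was 0.99 (SE 0.12, limma adjusted p = 2.05e-05). In that test across both ages, 1 of the 8 genes was called in the positive direction (Aldh18a1) and 1 in the negative (Otc), and over all 14588 genes 3.02% and 2.44% were.

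Oat, which interconverts pyrroline-5-carboxylate and ornithine (mm9 chr7:139749158-139768081, minus strand), held 2065, 2266 and 2227 CPM in WT neonates and 2144, 2188 and 2299 CPM in KO neonates. The neonatal groups overlapped, with a log2 difference of 0.02 (95% interval -0.09 to 0.12, limma adjusted p = 0.846). In adults the WT libraries held 589, 693 and 629.7 CPM and the KO libraries 637, 491 and 459.9 CPM.

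One KO adult library lay inside the WT range for Oat and the other 2 below it. The log2 difference in adults was -0.28 (95% interval -0.54 to -0.02, limma adjusted p = 0.117). Without KO adults replicate 1 it was -0.42 (limma adjusted p = 0.0156). The effect of the knockout in adults minus that in neonates was -0.30 (limma adjusted p = 0.243), and -0.44 (limma adjusted p = 0.0105) without that library.

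Oat and Aldh18a1 were also compared as a ratio of CPM within a library, which does not depend on the scaling of that library. The log2 ratio of Oat to Aldh18a1 was 3.12 ± 0.03 (SD, n = 3) in WT adults and 2.07 ± 0.37 in KO adults, a difference of -1.05 with no overlap (exact permutation test, two-sided, p = 0.1). In neonates the same log2 ratio was 1.78 ± 0.13 in WT and 2.02 ± 0.05 in KO, a difference of 0.24 with no overlap (exact permutation test, two-sided, p = 0.1). With 3 libraries against 3, 0.1 is the smallest p that this test can give.

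Cps1 encodes the mitochondrial synthase of carbamoyl phosphate (mm9 chr1:67169601-67277841, plus strand). WT neonatal libraries held 1017, 927 and 927 CPM and KO neonatal libraries 764, 927 and 803 CPM. The highest KO library, at 926.86 CPM, all but touched the lowest WT library, at 926.98 CPM. The log2 difference was -0.21 (SE 0.07, limma adjusted p = 0.0340). The call was lost with TMM factors (-0.10, limma adjusted p = 0.351), with deposited RPKM, with both count tests and when any library other than KO neonates replicate 2 was left out, with limma adjusted p-values from 0.0522 to 0.136.

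In adults the WT libraries held 568, 678 and 566 CPM of Cps1 and the KO libraries 583, 526 and 558 CPM. These groups overlapped, and the log2 difference was -0.12 (95% interval -0.31 to 0.08, limma adjusted p = 0.393). The exon length given for Cps1 was 4664 bases in the neonatal table and 5522 in the adult table, so its level per kilobase does not have the same base at both ages.

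Otc encodes the mitochondrial enzyme that forms citrulline from ornithine and carbamoyl phosphate (mm9 chrX:9829485-9898150, plus strand). Its adult WT libraries held 239, 242 and 218 CPM and its adult KO libraries 170.4, 150 and 149 CPM. Every KO adult library was below every WT one, and the group mean dropped by 32.9%. Otc fell in KO adults by 0.57 on the log2 scale (SE 0.08, limma adjusted p = 5.53e-04), and this was called under every alternative tried.

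In neonates Otc held 83.1, 81.8 and 93.8 CPM in the WT libraries and 78.5, 72.4 and 78.1 CPM in the KO libraries. The neonatal KO libraries also lay below the WT libraries, with a log2 difference of -0.17 (SE 0.07, limma adjusted p = 0.0876). The adult effect minus the neonatal effect was -0.40 (SE 0.11, limma adjusted p = 0.0293). That call was lost with no filter on low values (limma adjusted p = 0.0558), with deposited RPKM (limma adjusted p = 0.325), and without any of WT neonates replicates 1 and 2, KO neonates replicates 1 and 3, WT adults replicates 1 and 2 or KO adults replicates 2 and 3 (limma adjusted p from 0.0616 to 0.0859).

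The log2 ratio of Otc to Cps1 was -1.37 ± 0.12 (SD, n = 3) in WT adults and -1.83 ± 0.07 in KO adults, with no overlap (difference -0.46, exact permutation test, two-sided, p = 0.1). In neonates this log2 ratio overlapped, at -3.47 ± 0.16 in WT and -3.44 ± 0.21 in KO (exact permutation test, two-sided, p = 0.9). Neither comparison can pass a threshold of 0.05 with 3 libraries a group, and the ratios of the 2 ages were not tested against each other. The log2 ratio of Ass1 to Arg2, the genes for argininosuccinate synthase and for the mitochondrial arginase, was 3.38 ± 0.78 in WT neonates and 1.71 ± 0.67 in KO neonates, with no overlap (difference -1.66, exact permutation test, two-sided, p = 0.1). It was -9.43 ± 0.65 in WT adults and -9.43 ± 0.24 in KO adults (exact permutation test, two-sided, p = 1). The adult ratios rest on 6 to 20 reads of Ass1 a library, so they cannot show that the ratio was unchanged. Reads of Ass1 also cannot be placed with certainty, as described below.

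**Figure D4:**
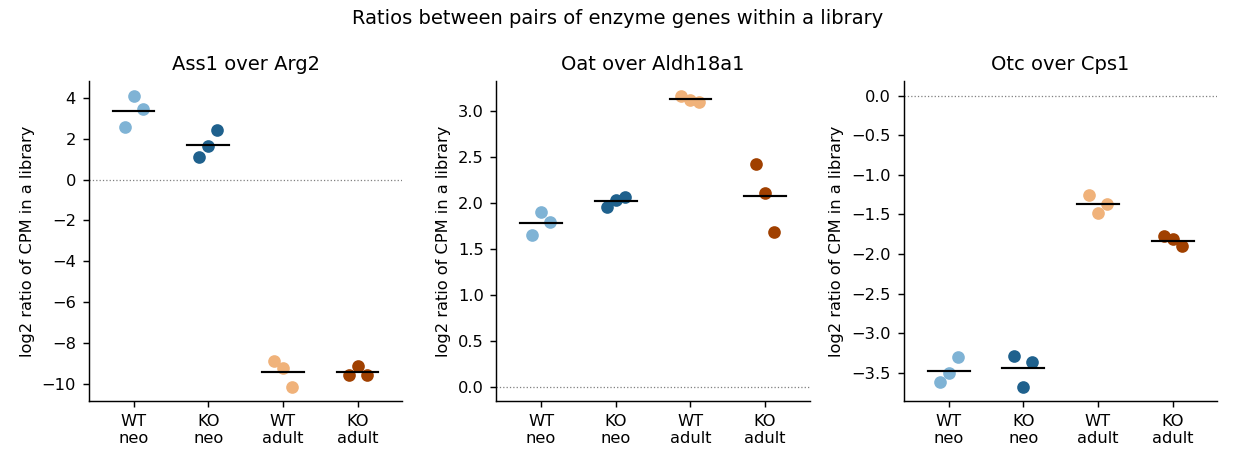
Log2 ratio of CPM within each library (points) and the group mean (line) for Ass1 over Arg2, Oat over Aldh18a1 and Otc over Cps1. The ratios are not adjusted for gene length. The neonatal KO libraries are below the neonatal WT libraries for Ass1 over Arg2, and the adult KO libraries are below the adult WT libraries for Oat over Aldh18a1 and for Otc over Cps1.

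The promoters of Aldh18a1 and Otc are shown because limma called the difference of their knockout effects between ages, a call that for Otc was lost under several alternatives and that edgeR and DESeq2 also made for Arg2. RefSeq promoter sequences on GRCm38.p6, from 250 bases before to 50 after the start of the gene, were at hand for 4 of the 8 genes (Aldh18a1, Otc, Ass1 and Oat). Capitals mark matches to the motifs searched on both strands: CACGTG (the E-box core), AGTTCA and AGGTCA (letters found in many nuclear receptor sites), CCAAT and TATAAA.
Aldh18a1, chr19:40588414-40588713, minus strand: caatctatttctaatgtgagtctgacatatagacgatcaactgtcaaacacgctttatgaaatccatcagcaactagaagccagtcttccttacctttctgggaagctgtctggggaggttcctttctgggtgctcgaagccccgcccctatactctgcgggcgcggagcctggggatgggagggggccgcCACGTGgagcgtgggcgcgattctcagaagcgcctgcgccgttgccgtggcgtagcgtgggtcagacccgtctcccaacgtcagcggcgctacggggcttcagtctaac
Otc, chrX:10252055-10252354, plus strand: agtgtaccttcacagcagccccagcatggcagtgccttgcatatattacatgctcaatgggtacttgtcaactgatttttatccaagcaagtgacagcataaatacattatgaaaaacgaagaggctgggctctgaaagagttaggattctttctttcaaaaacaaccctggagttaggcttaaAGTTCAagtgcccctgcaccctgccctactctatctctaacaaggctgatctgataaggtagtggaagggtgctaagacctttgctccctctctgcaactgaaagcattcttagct
The Aldh18a1 window held CACGTG at position -59, a motif in 7.15% of 32851 promoters, and the Ass1 window held it at -36. The Otc window held AGTTCA at position -66, a motif in 14.0% of promoters. The Oat window held AGTTCA at -169 and, on the other strand, at -18, the latter overlapping a CCAAT match at -22, and it had a further CCAAT match at -47. AGGTCA, in 16.3% of promoters, and TATAAA, in 13.6%, were not matched in any of the 4 windows. CCAAT was present in 37.4% of promoters. These matches describe letters in the windows and do not show that a factor binds.

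Ass1 encodes argininosuccinate synthase, which joins citrulline to aspartate (mm9 chr2:31325790-31376190, plus strand). WT neonatal libraries held 74.8, 89.2 and 84.1 CPM and KO neonatal libraries 67.2, 74.3 and 76.7 CPM. The groups overlapped, and the log2 difference was -0.18 (SE 0.08, 95% interval -0.34 to -0.02, limma adjusted p = 0.0967). In adults Ass1 was near the floor, with 1.70, 1.24 and 0.61 CPM (20, 14 and 6 reads) in WT and 0.81, 0.92 and 0.76 CPM (10, 12 and 9 reads) in KO. At this depth no difference between the adult groups was detectable.

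Reads of Ass1 cannot be placed with certainty. Its transcript is nearly the same as Gm5424, an argininosuccinate synthase pseudogene on chromosome 10 (mm9 chr10:61533770-61535319, plus strand), with 1540 identical bases of 1550 aligned (99.4%). Of the 1661 stretches of 36 bases in the Ass1 transcript, the number of sequencing cycles per the labels, 72.0% also occur elsewhere in mm9. A further reading of the same stretches shows that 23.3% of them occur elsewhere but, because they cross an exon junction, are not unbroken in the Ass1 gene. For 6 of the other members 0 stretches occurred elsewhere, and for Oat 4 of 2120 did. The 60 bases on the exon junction nearest the middle of the transcript show this, with the last base of one exon and the first of the next in capitals.
Ass1, chr2:31353728-31353757 joined to chr2:31356353-31356382: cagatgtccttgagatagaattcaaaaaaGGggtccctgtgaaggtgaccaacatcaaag
Gm5424, chr10:61534529-61534588: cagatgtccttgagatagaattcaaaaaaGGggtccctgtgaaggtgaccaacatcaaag
In Ass1 these bases lie in 2 exons, and in Gm5424 they form an unbroken run with 0 mismatches.

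Gm5424 had 127 ± 6.05 CPM (SD, n = 3) in WT neonates and 105 ± 7.45 CPM in KO neonates, and in adults 1.75 ± 0.37 CPM (WT) and 1.53 ± 0.28 CPM (KO). The ratio of its CPM to that of Ass1, not adjusted for length, ranged from 1.33 to 1.61 over the neonatal libraries. The sum of both was 209 ± 13.4 CPM in WT neonates, 178 ± 10.5 in KO neonates, 2.93 ± 0.87 in WT adults and 2.36 ± 0.21 in KO adults. The sum was 71.4-fold lower in WT adults than in WT neonates, close to the 69.8-fold of Ass1 alone. In neonates the sum, an alternative added after the data were seen, was lower in KO by 0.23 on the log2 scale (limma adjusted p = 0.0114), and with TMM factors the log2 difference was -0.13 (limma adjusted p = 0.187).

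Asl, the lyase that releases arginine and fumarate from argininosuccinate (mm9 chr5:130487373-130500201, minus strand), held 81.2, 88.1 and 78.3 CPM in WT neonates and 74.2, 72.6 and 71.8 CPM in KO neonates. Its WT adult libraries held 19.1, 17.0 and 19.2 CPM and its KO adult libraries 15.0, 16.3 and 16.7 CPM. The KO libraries lay below the WT libraries at both ages with a narrow gap. Neither log2 difference was called, that of -0.18 in neonates (SE 0.07, limma adjusted p = 0.0684) or the adult one of -0.19 (SE 0.10, limma adjusted p = 0.213). The adult effect minus the neonatal effect was -0.02 (95% interval -0.26 to 0.23, limma adjusted p = 0.967).

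Arg2 encodes the mitochondrial arginase (mm9 chr12:80231775-80257288, plus strand). Its WT neonatal libraries held 12.7, 5.14 and 7.70 CPM (108, 48 and 65 reads) and its KO neonatal libraries 31.6, 23.9 and 14.3 CPM (250, 199 and 85 reads). Every KO neonatal library was above every WT one, by 2.74-fold of the group means, but libraries of the same group differed by more than 2-fold. The log2 difference was 1.36 (SE 0.44, 95% interval 0.17 to 2.56), and limma did not call it (adjusted p = 0.114). DESeq2 on recovered reads called it, at 1.56 (adjusted p = 0.0113). In the authors' deposited table the log2 fold change of Arg2 in neonates was 1.62 with a false discovery rate of 4.85e-09, and in adults, with the sign turned to KO minus WT, it was -0.29 with a false discovery rate of 0.180.

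In adults Arg2 was abundant, with 810.1, 746 and 701 CPM in the WT libraries and 608, 521 and 576 CPM in the KO libraries. Every KO adult library was below every WT one, and the group mean dropped by 24.5%. Arg2 fell in KO adults by 0.41 on the log2 scale (SE 0.09, limma adjusted p = 0.00740). The call was lost with TMM factors, at -0.28 (limma adjusted p = 0.0542), and with deposited RPKM (limma adjusted p = 0.144).

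The effect on Arg2 in adults minus that in neonates was -1.77 (SE 0.46, 95% interval -2.83 to -0.71), which limma did not call (adjusted p = 0.0717). It was called by edgeR (adjusted p = 0.0426) and DESeq2 (adjusted p = 0.00323), and by limma without WT neonates replicate 1 (adjusted p = 0.0363) or without KO neonates replicate 3 (adjusted p = 0.0365). The log2 differences of the 2 ages thus had opposite signs, as for Aldh18a1, but pointed the other way.

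Arg1, the cytosolic arginase of liver and of some macrophages (mm9 chr10:24635013-24647276, minus strand), was near the floor in all 4 groups. Its means were 1.61 ± 0.67 CPM (SD, n = 3) in WT neonates, 1.51 ± 0.60 in KO neonates, 0.97 ± 0.20 in WT adults and 1.19 ± 1.25 in KO adults, from 3 to 31 reads a library. The groups overlapped throughout, and in neonates the log2 difference was -0.05 (95% interval -0.55 to 0.45, limma adjusted p = 0.906).

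Across the group, 4 of the 8 genes in neonates had every KO library below every WT library (Aldh18a1, Asl, Cps1 and Otc) and 1 had every KO library above (Arg2). Over all genes tested in neonates, 28.3% lay below without overlap and 8.62% above. In adults 3 lay below (Arg2, Asl and Otc) and 1 above (Aldh18a1), against 27.8% and 10.4% of all genes tested. The median log2 difference of the tested members was -0.17 in neonates and -0.24 in adults, beside -0.11 for all genes at both ages. With TMM factors the members' medians were -0.07 and -0.12.

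The genes around these enzymes were read from 5 lists. Among all tested genes, 5.21% were called higher and 16.0% lower in neonates, and 5.50% and 13.9% in adults. With TMM factors these shares were 8.99% and 7.72% in neonates and 9.94% and 6.37% in adults. No list was tested as a set against these shares. Of 15 genes that handle glutamate, proline and pyrroline-5-carboxylate, 3 were called higher and 5 lower in KO neonates (5 and 1 with TMM factors), and 4 higher and 2 lower of 14 tested in KO adults (5 and 2 with TMM factors). The median log2 difference of that list was -0.23 in neonates and -0.07 in adults, beside -0.11 for all genes at both ages. Glud1, glutamate dehydrogenase, fell in KO adults from 557 ± 85.3 to 297 ± 29.6 CPM, by 0.90 on the log2 scale (SE 0.11, limma adjusted p = 2.76e-04).

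Glud1 differed less in neonates, with 76.6 ± 3.03 and 64.5 ± 3.33 CPM, and its adult effect minus its neonatal effect was -0.65 (limma adjusted p = 0.00475). The transaminases Gpt and Got1 rose at both ages, Gpt from 272 ± 17.9 to 396 ± 50.1 CPM in adults (limma adjusted p = 0.00230) and Got1 from 162 ± 18.3 to 216 ± 23.2 CPM (limma adjusted p = 0.0124). Nags, which makes the N-acetylglutamate that activates the Cps1 enzyme, also rose at both ages, from 30.0 ± 2.44 to 37.2 ± 1.31 CPM in neonates (limma adjusted p = 0.0156) and from 51.5 ± 0.65 to 62.3 ± 4.81 CPM in adults (limma adjusted p = 0.0374). Those rises of Gpt, Got1 and Nags were also called with TMM factors.

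Aldh4a1, which oxidizes pyrroline-5-carboxylate to glutamate and was named after its values were seen, fell in KO adults from 218 ± 62.8 to 100.1 ± 5.40 CPM, by 1.08 on the log2 scale (limma adjusted p = 0.0155). In KO neonates Aldh4a1 was also lower, by 0.55 on the log2 scale (limma adjusted p = 0.0369; 0.0829 with TMM factors). Its adult effect minus its neonatal effect was -0.53 and was not called (limma adjusted p = 0.255). In KO adults Aldh18a1, which makes pyrroline-5-carboxylate from glutamate, was thus higher and Aldh4a1, of the reverse path, lower. In KO neonates both were lower with library sums.

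Of the amino acid carriers, 1 of 10 tested was called higher and 1 lower in KO neonates (3 and 0 with TMM factors), and 0 higher and 2 lower of 11 in KO adults (1 and 0 with TMM factors). Slc25a15, the mitochondrial ornithine carrier, stood at 258 ± 8.43 CPM in WT and 221 ± 5.82 CPM in KO neonates (limma adjusted p = 0.00571), a call lost with TMM factors (limma adjusted p = 0.182). Slc3a1, the heavy subunit of a basic amino acid and cystine transporter, went from 211 ± 4.89 CPM in WT to 246 ± 9.51 CPM in KO neonates, and from 465 ± 12.6 CPM in WT to 381 ± 5.19 CPM in KO adults. The neonatal rise of Slc3a1 was called at both scalings (limma adjusted p = 0.00688, and 2.94e-04 with TMM factors). Its adult fall was called with library sums (limma adjusted p = 0.0179) but not with TMM factors (limma adjusted p = 0.183). The adult effect on Slc3a1 minus the neonatal effect was -0.50 (limma adjusted p = 8.20e-04, and 0.00384 with TMM factors). Slc7a7, the light subunit of a basolateral carrier that exports arginine, stood at 312 ± 27.2 CPM in WT adults against 259 ± 7.66 in KO (limma adjusted p = 0.0430), and was not called with TMM factors (limma adjusted p = 0.338).

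Of 9 genes that use arginine for nitric oxide, creatine or agmatine or that handle methylarginines, 0 were called higher and 1 lower at each age. With TMM factors 1 was higher and 0 lower in neonates and 0 were called in adults, where 1 had an unadjusted p under 0.05 by limma at either scaling. The lower gene was Ddah1, which breaks down methylarginines, in neonates (14.3 ± 1.11 and 10.7 ± 1.10 CPM, limma adjusted p = 0.0271) and Gatm, the first enzyme of creatine synthesis, in adults (8.61 ± 1.71 and 5.34 ± 1.78 CPM, limma adjusted p = 0.0467). Neither call held with TMM factors. Gatm in neonates, at 46.9 ± 19.2 CPM in WT and 15.1 ± 2.37 CPM in KO, had a log2 difference of -1.48 that was not called (limma adjusted p = 0.0774).

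Of 10 polyamine genes, 1 was called higher and 1 lower at each age, at both scalings. Odc1, ornithine decarboxylase, which turns ornithine into putrescine, fell from 42.2 ± 2.42 to 31.8 ± 3.76 CPM in neonates (limma adjusted p = 0.00332) and from 76.9 ± 7.92 to 53.9 ± 9.59 CPM in adults (limma adjusted p = 0.0176). Azin1, an inhibitor of the antizymes that degrade ornithine decarboxylase, rose from 145 ± 12.2 to 178 ± 13.1 CPM in neonates (limma adjusted p = 0.00462) and from 563 ± 55.4 to 729 ± 26.4 CPM in adults (limma adjusted p = 0.0103).

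Of 8 genes for transcription factors linked to these enzymes, 2 were called higher and 1 lower at each age (3 and 0 in neonates and 2 and 0 in adults with TMM factors). The higher ones at both ages were Nr1h4, the bile acid receptor, from 59.4 ± 6.18 to 83.6 ± 4.30 CPM in adults (limma adjusted p = 0.00254), and Ppara, a fatty acid receptor, from 117 ± 18.6 to 266 ± 41.5 CPM in adults (limma adjusted p = 7.82e-04). Hif1a, the hypoxia factor, in neonates (93.5 ± 4.05 and 80.9 ± 3.43 CPM, limma adjusted p = 0.0286) and Nr3c1, the glucocorticoid receptor, in adults (259 ± 26.8 and 206 ± 20.5 CPM, limma adjusted p = 0.0287) were the lower ones, and both calls were lost with TMM factors. Prdm1, which is known to hold back the adult programme in suckling mouse gut and was named after its values were seen, stood at 154 ± 16.6 CPM in WT neonates and 163 ± 13.1 CPM in KO neonates, and at 21.0 ± 0.96 CPM in WT adults and 23.9 ± 4.04 CPM in KO adults, and was not called at either age.

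**Figure D5:**
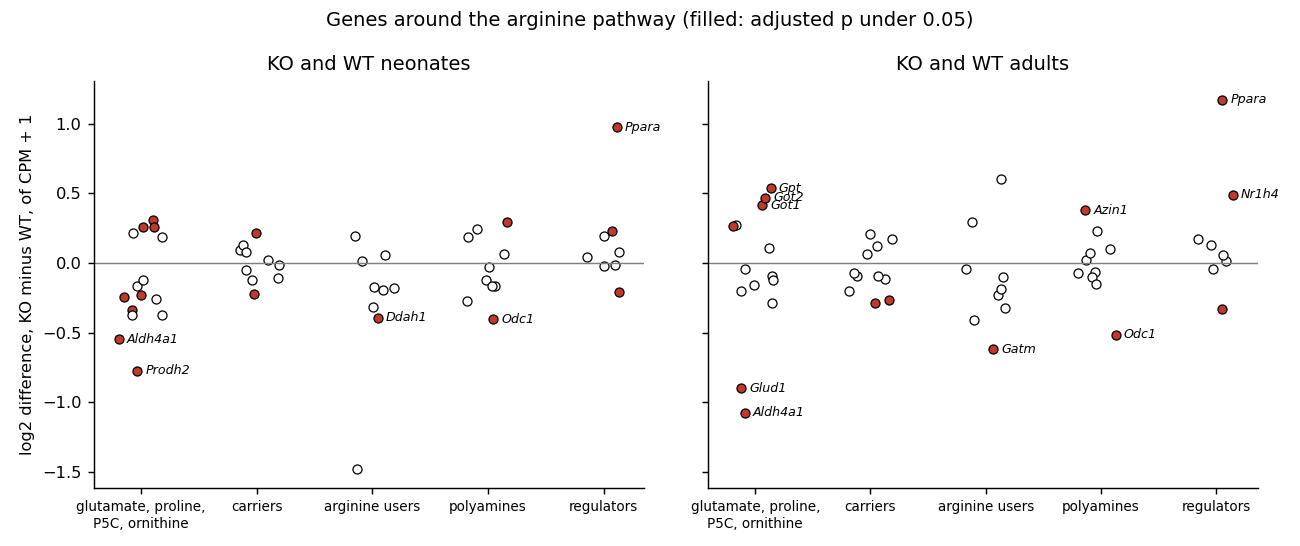
Log2 difference of CPM + 1, KO minus WT, for the tested genes of 5 lists around the arginine pathway in neonates (left) and adults (right); filled points have an adjusted p under 0.05. Ppara is the highest called point at both ages, and Glud1 and Aldh4a1 are the lowest called points in adults.

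Markers of cell types moved with some of these comparisons, and their part in the results was not tested. The summed level of the 10 enterocyte markers was 71188 to 74993 CPM in WT neonates and 77531 to 80406 CPM in KO neonates (8 called higher and 1 lower), and 48443 to 54665 and 54068 to 60212 CPM in WT and KO adults (2 higher and 0 lower). Over all tested genes 5.21% were called higher and 16.0% lower in neonates, and 5.50% and 13.9% in adults. The marker called lower was Apoa4, which held 47541 to 50099 CPM of the WT neonatal sums. Its call was lost with TMM factors (limma adjusted p = 0.894). The 9 myeloid markers summed to 305 to 345 CPM in WT neonates and 208 to 250 CPM in KO neonates, with 4 of 8 tested called lower (1 with TMM factors), and to 100.5 to 134 and 94.4 to 101 CPM in WT and KO adults, with 0 called by limma and 3 at an unadjusted p under 0.05. Csf1r made up most of the neonatal myeloid sums, at 200 to 258 CPM in WT and 123 to 159 CPM in KO. Cd68 went the other way, with every KO neonatal library above every WT one. The means of Cd14 and Retnla were also higher in KO neonates, and none of these rises was called by limma. The 9 liver markers, listed because liver holds Cps1, Otc and Arg1, did not move together in neonates. Ttr, the transthyretin gene, ranged from 124 to 161 CPM in WT neonates and from 289 to 317 CPM in KO neonates and was called higher (limma adjusted p = 1.89e-07), whereas the other 8 summed to 64.7 to 80.7 CPM in WT and 31.8 to 39.8 CPM in KO, with 3 called lower. In adults Ttr was called lower in KO, at 1.30 to 2.52 CPM against 3.48 to 4.33 CPM in WT (limma adjusted p = 0.0122), and the other 8 summed to 8.58 to 11.4 CPM in WT and 8.90 to 13.2 CPM in KO.

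The 6 pancreas markers varied widely within groups, from 837 to 2801 CPM in WT neonates and from 272 to 1852 CPM in KO adults, with 0 called by limma and 0 at an unadjusted p under 0.05 at either age. Of the 6 muscle and stroma markers, which summed in neonates to 2401 to 3406 CPM (WT) and 2314 to 2761 CPM (KO) and in adults to 1001 to 1197 CPM (WT) and 915 to 1017 CPM (KO), Pdgfra was called lower in KO neonates (limma adjusted p = 0.0272; 0.279 with TMM factors) and Col3a1 in KO adults (limma adjusted p = 0.00604; 0.0175 with TMM factors). The 6 lymphocyte markers summed in neonates to 44.3 to 62.7 CPM (WT) and 39.5 to 46.6 CPM (KO) and in adults to 627 to 896 CPM (WT) and 885 to 1137 CPM (KO). Of these, Ptprc was called lower in KO neonates (limma adjusted p = 0.0110; 0.0585 with TMM factors), and in adults 0 were called by limma with library sums (2 at an unadjusted p under 0.05) and 2 higher with TMM factors. Of the 4 red blood cell markers, Hbb-bt had no entry in neonates. The others summed in neonates to 36.8 to 92.9 CPM (WT) and 52.3 to 59.3 CPM (KO). In adults all 4 summed to 6.57 to 16.0 CPM (WT) and 6.97 to 9.04 CPM (KO). Limma called 0 of 2 tested at either age, and 1 had an unadjusted p under 0.05, in adults.

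The genes most like 4 of the enzymes across the 12 libraries were searched among 11940 genes by the mean absolute difference of centred log2(CPM + 1). For Ass1 these were Gm5424 (0.13), Cym, a gastric protease of suckling animals (0.14), and Pdzk1ip1 (0.21). For Arg2 they were Dpep1 (0.22), a membrane dipeptidase, Clca6 (0.22) and Slc10a2 (0.28), the ileal bile acid carrier. Dpep1 stood at 7.49 ± 1.35 CPM in WT neonates, 22.4 ± 4.96 in KO neonates, 547 ± 61.0 in WT adults and 538 ± 42.5 in KO adults. For Otc they were Synj2bp (0.08), Agr2 (0.09) and Rb1 (0.10), and for Cps1 Tubgcp3 (0.04), Thada (0.06) and Pi4kb (0.06). The measure compares shape over the same libraries and says nothing of shared function.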

How the data were processed

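The authors aligned reads with Bowtie 0.12.2 to mm9, per the submitters' processing notes, and counted exon reads of the opposite strand with analyzeRepeats of HOMER, 1 entry per gene, per the file headers. How reads matching several places were handled was not given in the text fields and headers used here. The deposited read columns are a signal, counts divided by 1 factor per library, and 100% of their values were whole multiples of a step within 0.01. The authors also deposited RPKM, log2 fold changes, and p-values with false discovery rates (q-values). The sign of the adult fold change was turned to KO minus WT.

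Here each library was scaled to its sum (CPM). Genes with at least 1 CPM in 3 libraries were tested as log2(CPM + 1), which understates changes of low genes, with limma 3.58.1 (trended, robust, two-sided) in R 4.3.3, KO against WT within an age, and as the difference of both effects over 12 libraries. Alternatives were TMM factors, edgeR 4.0.16 and DESeq2 1.42.0 on recovered reads, RPKM, other filters and pseudocounts, and each library left out. On recovered reads edgeR called 2392 genes in neonates, 2160 in adults and 638 for the difference. The tests were checked on simulated data with known changes of 1 size, as many up as down, and 1 dispersion for all genes. That check does not cover smaller changes, changes of low genes or the dependence on scaling. No 2 libraries were duplicates.

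The members and lists were chosen with earlier results of these data known. Named genes are the members, Ncor1, the called genes of each list up to the 3 lowest adjusted p-values per age, and the 3 most similar genes of Ass1, Arg2, Cps1 and Otc; 1 gene that this rule names is not reported here. Azin2 is entered under Adc, Adgre1 under Emr1 and Jchain under Igj.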

Additional observations from a re-analysis of the deposited data

Results flagged for a closer look

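The effect of the knockout on Aldh18a1 differed between ages by a test of the difference itself: the log2 difference in adults (0.77) minus that in neonates (-0.22) was 0.99 (SE 0.12, limma adjusted p = 2.05e-05). The KO libraries were all above the WT libraries in adults and all below them in neonates. With TMM factors the difference was 1.01 (limma adjusted p = 5.48e-05).

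The effect on Otc also differed, by -0.40 (SE 0.11, limma adjusted p = 0.0293), with every KO library below every WT library at both ages. With TMM factors it was -0.38 (limma adjusted p = 0.0461). The call was lost with no filter on low values (limma adjusted p = 0.0558), on deposited RPKM (limma adjusted p = 0.325) and in 8 of the 12 fits that left out 1 library (limma adjusted p from 0.0616 to 0.0859).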

How the results depend on the processing

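In neonates DESeq2 called 1585 genes against 3009 by limma, and in adults deposited RPKM gave 1167 against 2611. Leaving out 1 library gave 2020 to 2581 calls in neonates, 1281 to 2552 in adults (1483, 1605 and 1281 without WT adults replicate 2, KO adults replicate 2 and KO adults replicate 3) and 517 to 1047 for the difference (796 with all libraries; 517 without WT neonates replicate 2 and 529 without KO adults replicate 3). The 5 pathway lists together had 16 calls in neonates (9 to 15 with 1 library left out, lowest without KO neonates replicate 2, and 10 without WT neonates replicate 2), 14 in adults (7 to 12, lowest without KO adults replicate 3, and 8 without WT adults replicate 2) and 2 for the difference (2 to 3). The cause of these shifts was not tested. The log2 difference of the Ass1 to Arg2 ratio ranged from -2.07 to -1.29 in neonates with 1 library left out.

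On deposited RPKM the log2 of WT adults over WT neonates was -2.36 for Asl (-2.16 in CPM), -1.11 for Cps1 (-0.67), 1.24 for Otc (1.44), -1.98 for Oat (-1.78) and -3.32 for Aldh18a1 (-3.13), with the same signs. The sign of no member's called effect reversed under any alternative run. Replicate numbers were not taken as pairs in the main fits. Correlations of deviations between same-numbered libraries were 0.16, 0.14 and 0.03 in neonates and 0.06, -0.21 and -0.12 in adults. Between libraries of different number they ranged from -0.18 to 0.04 in neonates and from -0.13 to 0.23 in adults. Whether the numbers pair the neonatal samples is not settled by these values. A fit with a replicate block gave 3575 calls in neonates, 2272 in adults and 792 for the difference, and called 1 member higher (Arg2) and 4 lower (Aldh18a1, Cps1, Ass1 and Asl) in neonates. Ass1 and Arg1 in adults, with 3 to 31 reads a library, are limited by depth.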
